A study of Mus musculus with 6 samples.

Results

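The 41 genes described here are the ephrin, Eph receptor, semaphorin and plexin genes that mouse neural progenitor cells (NPCs) transcribed at a measurable level. They were chosen by name, size and level. Of 53801 genes in the count tables, 54 had a symbol beginning with Efna, Efnb, Epha, Ephb, Sema or Plxn, 52 of these spanned less than 500 kb, and 41 of the 52 reached a mean of 1 CPM (counts scaled to a common library total) over the 6 libraries. The 41 members were 8 ephrins, 10 Eph receptors, 14 semaphorins and 9 plexins. Just inside the level limit lay Sema7a at 1.07 CPM and Efna1 at 1.73 CPM, and just outside it Sema3e at 0.970 CPM and Sema4f at 0.780 CPM. On the size limit, Sema3a at 477151 bp and Sema5a at 451531 bp were inside, whereas Sema6d at 577801 bp and Epha6 at 952048 bp were outside. The other genes under 1 CPM were Epha1, Epha8, Epha10, Sema3b, Sema3g, Sema4a and the antisense genes Plxna4os1, Plxna4os2 and Plxna4os3, the last 3 with 0 counts in every library.

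The cells were NPCs differentiated from mouse embryonic stem cells of a BL/6J x CAST-EiJ hybrid strain in which the nuclear RNA-binding corepressor SPEN carries an auxin-inducible degron (AID), and all 6 libraries came from cells with this degron. NPC subclones named clone 30 and clone 31, each a clonal line, were grown with EGF and FGF. RNA was taken from untreated cells and from cells kept in 500 uM auxin for 24 h or 48 h, giving 1 library per clone and time and n = 2 per treatment group. In a fit without the clone, a p-value therefore measures the spread between these 2 subclones. In a fit with the clone, the steady difference between the subclones is removed. The p-value then measures how unevenly the 2 subclones changed over the times. Cells without the degron given auxin were not analysed here, so an effect of auxin itself and an effect of losing SPEN protein cannot be told apart.

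Ephrins are membrane-bound ligands, held by a lipid anchor in the A class and by a transmembrane segment in the B class, and Eph receptors are the receptor tyrosine kinases that bind them on neighbouring cells. Semaphorins are secreted (class 3) or membrane-attached (classes 4 to 7) guidance proteins, and plexins are their receptors, joined by neuropilins as coreceptors for most class 3 ligands. In the developing brain both systems steer axons and migrating cells and keep cell populations apart, and several members act on the division and positioning of neural progenitors.

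Promoter sequence was examined because 10 members moved at 48 h in the fit described below. RefSeq promoter windows of 300 bases (250 before to 50 after each start, GRCm38.p6) matched 36 of the 41 members, with 46 windows. Plxna4, Sema3f, Plxna1, Efnb3 and Sema6a had no window. The stretches upstream of 4 of the members that moved are given from 5′ to 3′ on the gene's strand, with CG dinucleotides in capitals. They are shown because, of the stretches of the called members, these 4 had enough bases before both annotated starts and no exon of another gene: Plxnb3 (plus strand, chrX:73756853-73757089) and Sema6c (plus strand, chr3:95160170-95160419) were higher at 48 h, as was Ephb2 (minus strand, chr4:136836013-136836262), and Ephb4 (plus strand, chr5:137349859-137350108) was lower.
Plxnb3: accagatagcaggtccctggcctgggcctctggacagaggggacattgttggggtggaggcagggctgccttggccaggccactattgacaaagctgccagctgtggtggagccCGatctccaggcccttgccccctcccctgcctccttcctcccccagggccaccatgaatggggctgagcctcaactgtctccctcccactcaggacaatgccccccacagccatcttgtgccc
Sema6c: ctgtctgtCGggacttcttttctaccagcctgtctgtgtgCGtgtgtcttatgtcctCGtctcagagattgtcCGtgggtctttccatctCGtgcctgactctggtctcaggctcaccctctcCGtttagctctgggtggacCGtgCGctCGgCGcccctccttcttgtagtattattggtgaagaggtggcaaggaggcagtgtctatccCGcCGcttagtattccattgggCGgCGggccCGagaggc
Ephb2: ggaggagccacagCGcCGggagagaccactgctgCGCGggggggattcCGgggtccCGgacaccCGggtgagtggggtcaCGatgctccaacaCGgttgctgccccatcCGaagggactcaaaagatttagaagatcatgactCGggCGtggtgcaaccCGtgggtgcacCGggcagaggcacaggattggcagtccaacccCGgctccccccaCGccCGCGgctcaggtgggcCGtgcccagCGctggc
Ephb4: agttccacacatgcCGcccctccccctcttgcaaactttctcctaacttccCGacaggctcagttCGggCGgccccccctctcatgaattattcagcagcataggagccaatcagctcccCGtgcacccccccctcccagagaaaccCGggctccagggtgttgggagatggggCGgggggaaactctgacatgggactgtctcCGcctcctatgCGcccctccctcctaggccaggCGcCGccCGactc
The Plxnb3 stretch held 1 CG dinucleotide, against 15 upstream of Sema6c, 20 upstream of Ephb2 and 12 upstream of Ephb4. In the whole windows the median was 23 CG dinucleotides for the members and 7 for all 32851 windows. The Plxnb3 window held 4, a number that 13% of member windows and 38.0% of all windows did not exceed, and a second Sema6c window held 3. A pair of motifs was searched on both strands, TGGGAA, the core that the Notch-pathway factor RBPJ binds (SPEN is a known RBPJ corepressor), and GGGCGG, the GC box of Sp factors, which cannot overlap each other. TGGGAA stood in 21.7% of member windows and 25.6% of all windows. GGGCGG stood in 73.9% of member windows and 35.7% of all windows. The members had to reach a level in these cells, whereas all windows include those of genes at any level. The part of this limit in the differences in CG dinucleotides and motifs was not tested. Of the 7 members higher at 48 h that had a window, 1 held TGGGAA (Plxnb1) and 4 held GGGCGG, and of the 2 lower members 0 and 2 did. A match is a description of the letters and says nothing of binding.

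Library totals ran from 24603816 to 43008978 counts, so that 3 counts correspond to 0.0711 to 0.1204 CPM, and the members together took 0.287% to 0.355% of the counts. The transcript of the targeted gene Spen was present in all 6 libraries and was higher under auxin (92.4 and 116 CPM untreated, 174 and 218 CPM at 24 h, 199.7 and 259 CPM at 48 h), which does not measure the degraded protein. Neural progenitor markers were abundant, with 9 of 10 tested and Sox1 at or near 0, while endoderm and microglia markers summed to at most 0.308 and 0.150 CPM.

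**Figure D1:**
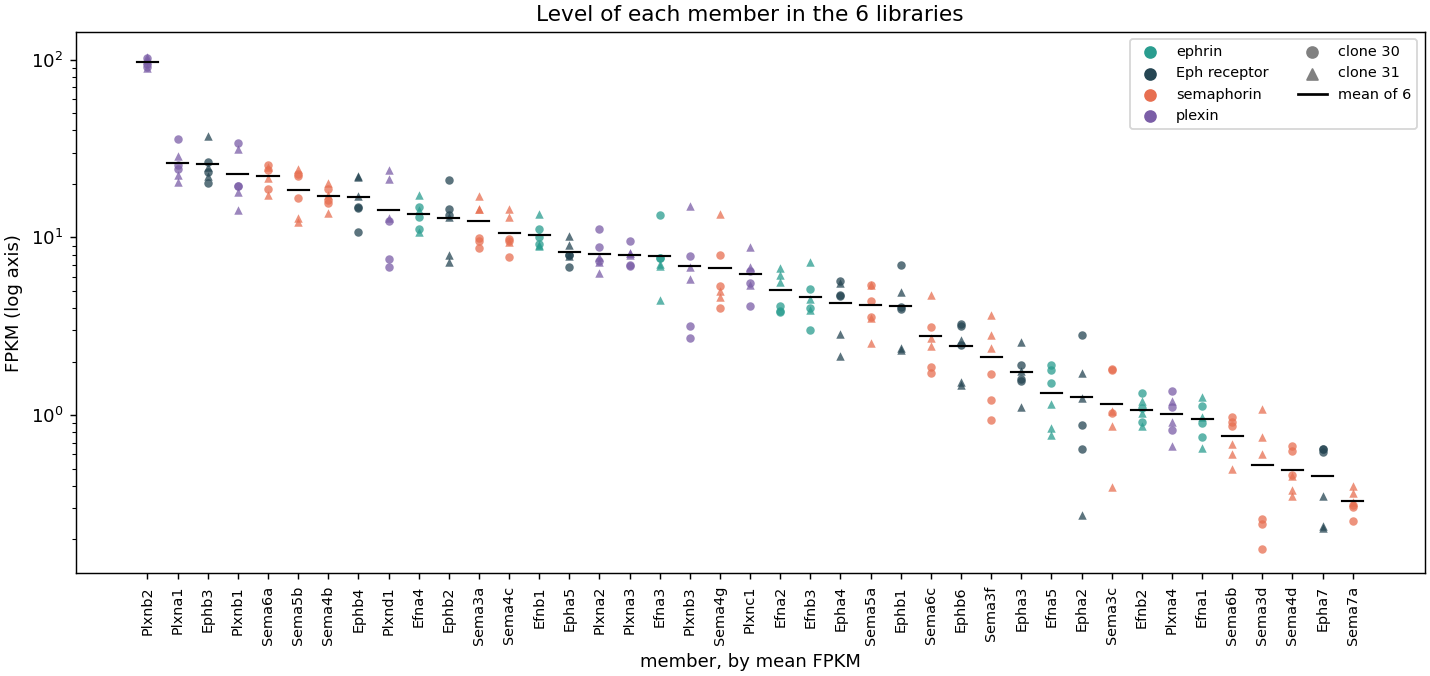
Level of each member in FPKM (CPM per kilobase of exon, log axis) in the 6 libraries, ordered by the mean over the libraries, with circles for clone 30 and triangles for clone 31. Plxnb2 lies between 89.97 and 104 in all 6 libraries, above every value of every other member.

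Levels can be compared between genes only per length, so they are given as FPKM, the TMM-scaled CPM divided by the exon length in kilobases. Plxnb2, the plexin that binds class 4 semaphorins and is known from cerebellar progenitors, was the most abundant member, with a mean level of 96.8 FPKM over the 6 libraries. It was followed by Plxna1 (26.2 FPKM), the Eph receptor Ephb3 (25.8 FPKM), Plxnb1 (22.7 FPKM) and the transmembrane semaphorins Sema6a (22.03 FPKM) and Sema5b (18.4 FPKM). The ranges of the 5 members after Plxnb2 overlapped, so their order is not fixed by these libraries. Among ligands for Eph receptors, Efna4 (13.6 FPKM) and the X-linked Efnb1 (10.3 FPKM) were the highest. At the other end stood the Eph receptor Epha7 (0.455 FPKM), the immune semaphorin Sema4d (0.489 FPKM) and the lipid-anchored Sema7a (0.326 FPKM).

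The summed FPKM of Plxnb1, Plxnb2 and Plxnb3 was 113 and 110.0 in the untreated libraries of clone 30 and clone 31, against 41.3 and 37.7 for the 4 class A plexins. Plxnb2 alone made up 90.6 and 89.97 FPKM of the class B sums. The 5 EphB receptors summed to 59.8 and 55.8 FPKM, and the 5 EphA receptors to 15.8 and 16.1 FPKM. Class A ephrins summed to 25.5 and 22.6 FPKM and class B ephrins to 15.1 and 14.5 FPKM. At 48 h the EphB sum was 68.6 and 75.1 FPKM and the plexin-B sum 136 and 146 FPKM, both above the untreated libraries, whereas the EphA sum was 16.5 and 17.3 FPKM.

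After 48 h of auxin, the plexins Plxnb3 and Plxnb1 and the Eph receptors Ephb1 and Ephb2 rose between 1.55-fold and 2.52-fold against untreated cells, and Ephb4 fell. The semaphorins Sema4g, Sema6c and Sema6a and the plexin Plxna2 rose, and the secreted semaphorin Sema3c fell to 0.468 of its untreated level. These calls come from edgeR's quasi-likelihood test with clone as a block and p-values adjusted by Benjamini-Hochberg over 16007 genes, at a threshold of 0.05. The same test without the block, which was the main design, called 0 of 41 members (0% of all genes tested). It had 5 members and 3311 genes at an unadjusted p under 0.05. With the block, 10 of 41 members were called, 24.4% against 17.4% of all genes tested. Of these, 8 were higher (19.5%, against 8.35% of all genes) and 2 lower (4.88%, against 9.08%). DESeq2 called 3 members without the block (10.4% of all genes) and 14 with it (21% of all genes). The median log2 change was 0.21 for the members and 0.02 for all genes.

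The 10 calls depended on single libraries. In the fit with the block, leaving out the untreated library of clone 31 left 0 calls (0.0367% of all genes), and leaving out the 24 h library of clone 30 or 31 left 3 (3.76% or 3.94% of all genes). The 4 untreated and 48 h libraries fitted alone gave 0 (0.0195% of all genes), whereas leaving out the 48 h library of clone 30 gave 27 (39.4% of all genes). All 10 called members kept their direction in the 11 other fits with the block, and each was called in 5 to 9 of them.

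**Figure D2:**
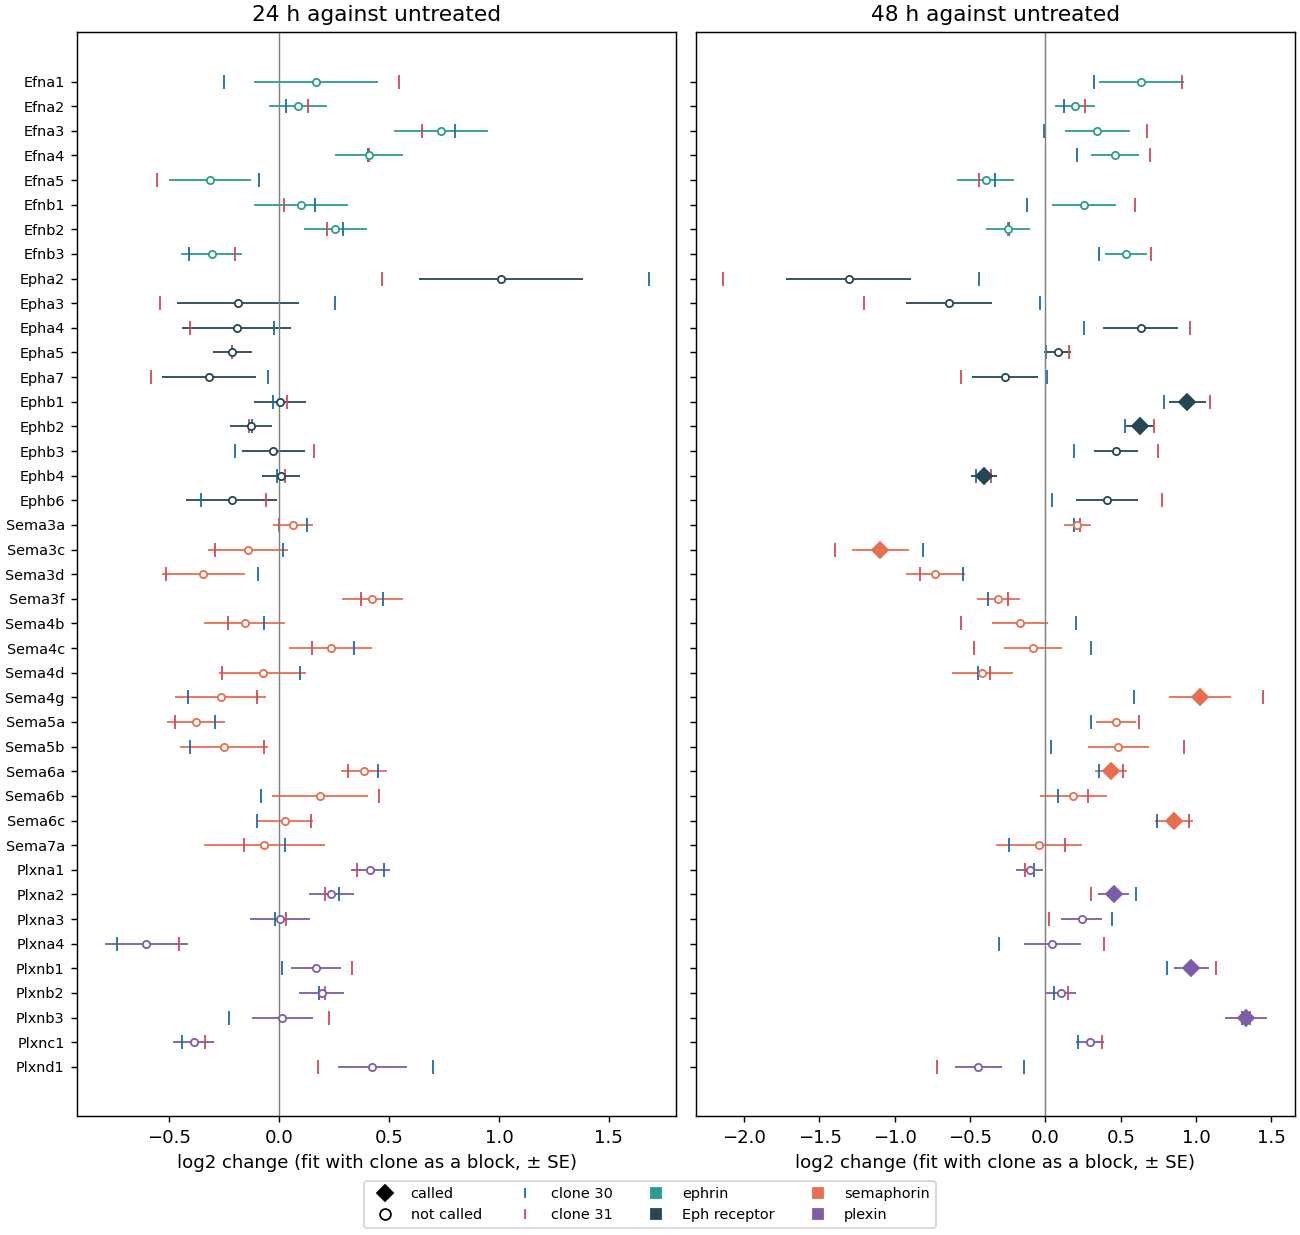
Log2 change of each member after 24 h (left) and 48 h (right) of auxin against untreated cells, with the standard error of the fit with clone as a block and short vertical marks for clone 30 (blue) and clone 31 (red). Filled diamonds are called at an adjusted p of 0.05 and open circles are not, and the 10 diamonds all stand in the 48 h panel.

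Among the ephrins, 0 of 8 members were called at 48 h with the block (17.4% of all genes). Of the 8, 6 had a log2 change above 0, as did 8308 of all 16007 genes tested. Efna4, the most abundant A-class ephrin, measured 17.9 and 17.1 CPM in the untreated libraries of clones 30 and 31, 23.7 and 22.8 CPM at 24 h, and 20.8 and 27.8 CPM at 48 h. All 4 auxin libraries were above both untreated libraries, but neither contrast was called (48 h log2 change 0.46 ± 0.16 SE, edgeR adjusted p 0.0919 with the block). Efnb1, an X-linked B-class ephrin, measured 34.5 and 30.9 CPM untreated, 38.6 and 31.4 CPM at 24 h, and 31.7 and 46.7 CPM at 48 h. Its clones went opposite ways at 48 h, by -0.12 in clone 30 and 0.59 in clone 31 on the log2 scale. Efnb3, chosen for mention after its values were seen, lay nearest the threshold, with 12.8 and 14.3 CPM untreated and 16.4 and 23.2 CPM at 48 h (log2 change 0.53, adjusted p 0.0506 in edgeR and 0.032 in DESeq2, both with the block).

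The EphB receptors moved in opposite directions. Ephb1, a receptor for B-class ephrins, measured 28.3 and 16.3 CPM in untreated clones 30 and 31, 27.8 and 16.6 CPM at 24 h, and 48.9 and 34.7 CPM at 48 h. Both 48 h libraries were above the 4 others, and the log2 change was 0.94 ± 0.12 SE (adjusted p 0.0238 with the block, 0.255 without). Ephb2, whose ligands include the B-class ephrins, measured 183 and 100.1 CPM untreated, 168 and 91.2 CPM at 24 h, and 264 and 165 CPM at 48 h. The clones differed so much that the groups overlapped, with clone 31 at 48 h under untreated clone 30, yet within each clone the 48 h library was the highest. The log2 change of Ephb2 was 0.63 ± 0.10 SE (adjusted p 0.0245 with the block, 0.483 without).

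Ephb4, the receptor for Efnb2 best known from veins, measured 68.5 and 101 CPM untreated, 68.1 and 103 CPM at 24 h, and 49.8 and 79.0 CPM at 48 h. Its 48 h library was the lowest within each clone, with overlapping groups and a log2 change of -0.41 ± 0.09 SE (adjusted p 0.0337 with the block, 0.546 without). Efnb2 itself was low, between 5.91 and 9.15 CPM. Ephb3, the most abundant Eph receptor, measured 147 and 139.7 CPM untreated, 128 and 156 CPM at 24 h, and 168 and 235 CPM at 48 h. The 48 h libraries were above both untreated libraries, but the change of 0.47 ± 0.14 SE was not called (adjusted p 0.0734 in edgeR, 0.0332 in DESeq2, both with the block). The kinase-inactive Ephb6 was not called either, at 0.41 ± 0.21 SE.

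None of the 5 EphA receptors was called by edgeR at 48 h, where the fit with the block called 17.4% of all genes. Their changes ranged from -1.31 (Epha2) to 0.63 (Epha4) on the log2 scale. Epha2, chosen for mention after its values were seen, was low throughout, with 4.09 and 5.85 CPM untreated, 13.3 and 8.11 CPM at 24 h, and 3.01 and 1.28 CPM at 48 h. Its 24 h libraries were the highest and its 48 h libraries the lowest in both clones. The 48 h change of -1.31 ± 0.42 SE had an adjusted p of 0.0802 in edgeR and 0.00775 in DESeq2, both with the block.

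Among the semaphorins, 4 of 14 members were called at 48 h with the block (17.4% of all genes). Of these, 3 were higher (8.35% of all genes) and 1 lower (9.08% of all genes). Sema4g, a transmembrane class 4 semaphorin, measured 25.9 and 24.2 CPM untreated, 19.4 and 22.5 CPM at 24 h, and 38.9 and 65.9 CPM at 48 h. The 48 h libraries stood above the 4 others, and the change was larger in clone 31 (1.44) than in clone 30 (0.58) on the log2 scale, with a fitted change of 1.03 ± 0.21 SE (adjusted p 0.0323 with the block, 0.146 without). Whether the clones differ in this change was not tested. Sema6c measured 11.04 and 14.6 CPM untreated, 10.3 and 16.2 CPM at 24 h, and 18.5 and 28.3 CPM at 48 h. Its 48 h libraries were the highest of the 6, with a change of 0.85 ± 0.13 SE (adjusted p 0.0241 with the block, 0.227 without).

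Sema6a, a transmembrane ligand of Plxna2 and Plxna4, measured 164 and 153 CPM untreated, 224 and 190.5 CPM at 24 h, and 209.8 and 218 CPM at 48 h. Both 24 h libraries were above both untreated libraries, and the 48 h change was 0.44 ± 0.10 SE (adjusted p 0.0429 with the block, 0.166 without). Plxna2, a receptor of Sema6a, measured 126 and 108 CPM untreated, 153 and 125 CPM at 24 h, and 191 and 133 CPM at 48 h. Its 48 h libraries lay above both untreated libraries, with a change of 0.45 ± 0.10 SE (adjusted p 0.0396 with the block, 0.289 without).

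The secreted class 3 semaphorins had a median change of -0.52 at 48 h, and Sema3c was called. It measured 12.9 and 7.55 CPM untreated, 13.03 and 6.17 CPM at 24 h, and 7.31 and 2.83 CPM at 48 h. Both 48 h libraries were under both untreated libraries, and the change was -1.09 ± 0.19 SE (adjusted p 0.0269 with the block, 0.400 without). Sema3d and Sema3f also lay below 0 (-0.73 and -0.31) without being called, and Sema3a, the best-known repellent of the class and the most abundant of the 4, lay at 0.21. Sema4b, chosen for mention after its values were seen, was 0.20 higher in clone 30 and 0.56 lower in clone 31 on the log2 scale, with CPM of 92.1 and 114 untreated and 106 and 77.7 at 48 h. Whether the clones differ in this change was not tested. No member moved by 0.5 or more in opposite directions in the 2 clones.

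Sema5b was, by mean FPKM, the most abundant semaphorin among the members after Sema6a. It measured 157 and 90.5 CPM untreated, 118 and 86.4 CPM at 24 h, and 161 and 171 CPM at 48 h. Its 48 h change of 0.48 ± 0.20 SE was not called (edgeR adjusted p 0.145 with the block) and came mostly from clone 31. Sema5a, chosen for mention after its values were seen, measured 82.1 and 66.0 CPM in the untreated clones and 101 CPM in each clone at 48 h and was not called (edgeR adjusted p 0.0622 with the block).

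**Figure D3:**
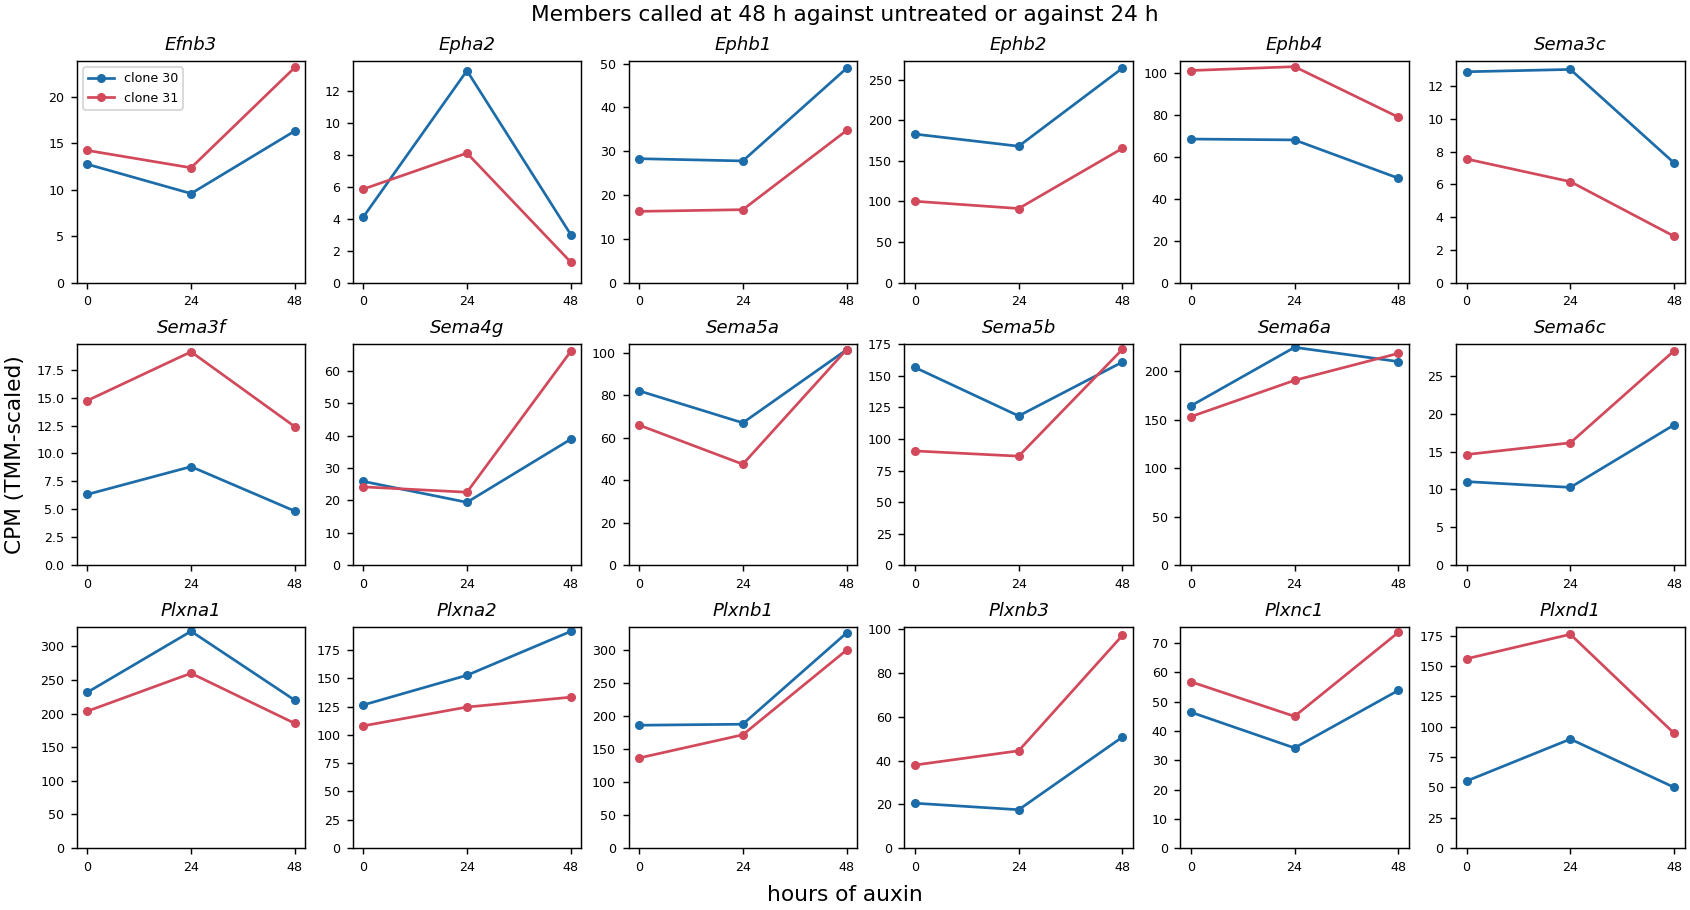
TMM-scaled CPM against hours of auxin for the 18 members called at 48 h against untreated or against 24 h, with clone 30 in blue and clone 31 in red. In Plxnb3, Plxnb1, Ephb1 and Sema4g both 48 h libraries are above the 4 others, while Epha2, Plxna1 and Plxnd1 peak at 24 h.

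Of the plexins, 3 of 9 were called higher with the block (8.35% of all genes) and 0 lower (9.08% of all genes). The 2 largest changes were in class B. Plxnb3, an X-linked plexin that binds the class 5 semaphorin Sema5a, measured 20.5 and 37.9 CPM in untreated clones 30 and 31, 17.5 and 44.4 CPM at 24 h, and 50.7 and 97.2 CPM at 48 h. Both 48 h libraries exceeded the 4 others, and both clones moved by a like amount (1.30 and 1.36 on the log2 scale), for a change of 1.33 ± 0.14 SE (adjusted p 0.0238 with the block, 0.268 without). Plxnb1, a receptor of Sema4d, measured 186 and 137 CPM untreated, 188 and 172 CPM at 24 h, and 326 and 300.1 CPM at 48 h. It had the lowest adjusted p of the members without the block (0.139), and with the block the change was 0.97 ± 0.12 SE (adjusted p 0.0238). Its ligand Sema4d was at 2.67 to 5.15 CPM and was not called.

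Plxnb2 differed from its class. It measured 699 and 695 CPM untreated, 792 and 802 CPM at 24 h, and 728 and 769.7 CPM at 48 h. The clones lay close together at each time, and the 48 h change was 0.10 ± 0.10 SE (edgeR adjusted p 0.502 with the block). Plxna1, a coreceptor partner of neuropilins for class 3 semaphorins, measured 232 and 203 CPM untreated, 322 and 259.8 CPM at 24 h, and 219.7 and 185 CPM at 48 h. The 24 h libraries were the highest, and the 48 h change of -0.11 ± 0.09 SE was not called. Plxna3, the third X-linked member, measured 55.2 and 63.1 CPM untreated, 54.5 and 64.4 CPM at 24 h, and 75.1 and 64.2 CPM at 48 h. It was higher at 48 h in clone 30 and near its untreated level in clone 31 (log2 changes 0.44 and 0.02). Thus of the 3 X-linked members, Plxnb3 was called and Efnb1 and Plxna3 were not. The counts do not separate the alleles of the hybrid cells.

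Without reference to any model, the 2 groups did not overlap for 16 members higher at 48 h (25.7% of all genes) and 4 members lower (25.7% of all genes), that is 39% and 9.76% of the 41. Both clones moved up for 23 members (36.9% of all genes) and down for 11 (35.3% of all genes), and the clones disagreed in sign for the other 7.

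Markers of glial cells moved with the 48 h comparison. In the fit with the block, which called 8.35% of all genes higher and 9.08% lower, 6 of 10 astrocyte markers rose and 0 fell. Their summed level was 2091 to 2424 CPM untreated, 2117 to 2169 CPM at 24 h and 2978 to 4058 CPM at 48 h. Of the oligodendrocyte lineage markers, 4 of 8 tested rose, among them Cnp by 1.69 on the log2 scale, with a sum of 2857 to 3333 CPM untreated, 3009 to 3072 CPM at 24 h and 3379 to 3655 CPM at 48 h. The defining markers Sox10 and Mog were at or near 0, and Gfap was at most 2.72 CPM. Neural progenitor markers rose in 2 of 9 cases (Sox2 and Sox9) and neuron markers in 0 of 9. The remaining lists had 1 call each, higher, for pluripotent cells (Nanog, of 3 tested), mesenchymal cells (Col1a1, of 7) and endothelial cells (Kdr, of 2). The part of these cell types in the members' changes was not tested. In bulk RNA, more cells of a type and more RNA per cell cannot be told apart.

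After 24 h, no member was called in the fits on all 6 libraries, although some fits on fewer libraries called members. edgeR called 0 of 41 members with the block or without it (0% of all genes tested in either fit), and DESeq2 called 0 members without the block (0.0375% of all genes) and 0 with it (0.256% of all genes). At an unadjusted p under 0.05, edgeR had 2 members and 240 genes without the block and 10 members and 988 genes with it. The median change was 0.01 for the members and 0.01 for all genes. The lowest p belonged to Plxna1 (0.42 ± 0.09 SE), Plxnc1 (-0.39 ± 0.09 SE) and Sema6a (0.39 ± 0.10 SE), with edgeR adjusted p of 0.656, 0.663 and 0.694 with the block. Their 24 h and untreated groups did not overlap, which in all held for 6 members higher (13% of all genes) and 5 lower (12.4% of all genes). Epha2 had the highest value, 1.01 ± 0.37 SE, and Plxna4, a receptor of class 3 and class 6 semaphorins, the lowest, -0.60 ± 0.19 SE. Plxna4, chosen for mention after its values were seen, measured 19.4 and 12.9 CPM untreated and 11.6 and 9.39 CPM at 24 h.

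The 24 h changes, none of them called in the fits on all 6 libraries, were also ordered by gene span. Under 50 kb, 6 of 24 members lay below 0 (48.3% of all genes of that span), with a median of 0.13 against 0.006 for all genes. Of the 9 members of 100 to 200 kb, 7 lay below 0 (45% of all genes), with a median of -0.14 against 0.02 for all genes. Of the 8 members of 200 to 500 kb, 6 did (63.6% of all genes), with a median of -0.26 against -0.08 for all genes. Spearman's rho between span and 24 h change was -0.42 over the 41 members, which share the same 6 libraries. At 48 h the medians were 0.22, 0.44 and 0.06 in the same order, against 0.02, 0.06 and -0.01 for all genes. The longest member called, Ephb1, spans 432565 bp.

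**Figure D4:**
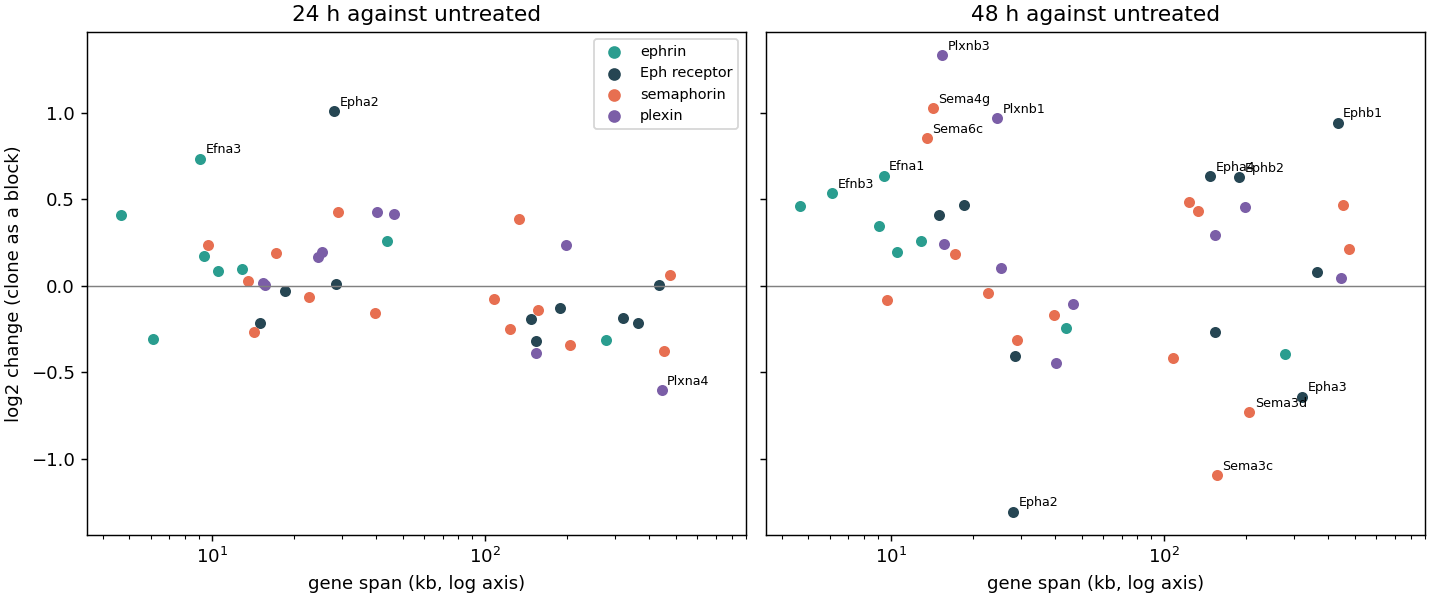
Log2 change of each member (fit with clone as a block) against the span of its gene in kilobases (log axis), after 24 h (left) and 48 h (right) of auxin, coloured by family and with members beyond 0.5 in size named. At 24 h, 13 of the 17 members over 100 kb lie below 0, and 6 of the 24 shorter members do.

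Between 24 h and 48 h of auxin, more members moved. With the block, edgeR called 16 of 41 members, 39% against 26.1% of all genes tested, of which 10 were higher (12.3% of all genes) and 6 lower (13.9% of all genes). The fit without the block called 0 members (0% of all genes), with 11 members and 3997 genes at an unadjusted p under 0.05, and DESeq2 called 6 without the block (15.8% of all genes) and 19 with it (26.7% of all genes). This comparison shares its 48 h libraries with the one above. The groups did not overlap for 15 members higher (28.4% of all genes) and 6 lower (27.9% of all genes). Leaving out the 24 h library of clone 30 or 31 left 0 calls in edgeR with the block (0% or 0.0183% of all genes), and leaving out the 48 h library of clone 30 gave 25 (44.4% of all genes). All 16 kept their direction in the 11 other fits with the block. In the same comparison 7 of 10 astrocyte markers and 5 of 8 oligodendrocyte lineage markers rose (12.3% of all genes), and their part in the result was not tested.

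Several members called here, and not against untreated cells, were highest or lowest at 24 h. Epha2 fell by 2.32 ± 0.40 SE on the log2 scale (edgeR adjusted p 0.0181 with the block), Plxna1 by 0.52 ± 0.09 SE (adjusted p 0.0180) and Plxnd1, an endothelial and neuronal receptor of Sema3e, by 0.87 ± 0.16 SE (adjusted p 0.0187). Plxnd1 measured 55.2 and 156 CPM untreated, 89.8 and 176 CPM at 24 h, and 50.01 and 94.4 CPM at 48 h, so that each clone was lowest at 48 h. Plxnc1, a receptor of Sema7a chosen for mention after its values were seen, rose by 0.68 from 34.2 and 45.0 CPM at 24 h to 53.9 and 73.6 CPM at 48 h. Sema5a and Sema5b rose by 0.85 and 0.73, Efnb3 by 0.84, and Sema3f fell by 0.74. Plxnb3, Plxnb1, Ephb1, Ephb2, Sema4g and Sema6c also rose, by 1.32, 0.80, 0.94, 0.76, 1.29 and 0.83, and Ephb4 and Sema3c fell by 0.42 and 0.95.

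The clones themselves differed in the members. With treatment group in the model, 16 of 41 members were called between clone 31 and clone 30, 39% against 16.2% of all genes tested, with 9 higher in clone 31 (7.58% of all genes) and 7 lower (8.58% of all genes). As each clone is 1 line, the test covers these lines and no wider contrast. Without treatment group in the model 3 members were called (3.65% of all genes). Leaving out the 24 h library of clone 30 or 31 left 6 (4.51% or 4.46% of all genes), whereas leaving out the 48 h library of clone 30 or 31 gave 25 or 26 (30.8% or 30.9% of all genes).

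Among the members higher in clone 31, Sema3d, Sema3f and Plxnd1 differed most. Sema3d measured 2.25, 2.10 and 1.52 CPM in clone 30 (untreated, 24 h, 48 h) and 9.3, 6.5 and 5.2 CPM in clone 31, a difference of 1.81 ± 0.16 SE on the log2 scale (edgeR adjusted p 0.00302). Sema3f measured 6.34, 8.83 and 4.85 CPM in clone 30 and 14.7, 19.1 and 12.4 CPM in clone 31, a difference of 1.22 ± 0.11 SE (adjusted p 0.00346). For both, and for Plxnd1 (1.13 ± 0.13 SE, adjusted p 0.00575), every library of clone 31 exceeded every library of clone 30. Sema3a was 0.70 higher in clone 31.

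Other members were lower in clone 31. Epha7, a receptor known for patterning of cortical progenitors, measured 6.34, 6.13 and 6.40 CPM in clone 30 and 3.48, 2.30 and 2.34 CPM in clone 31, with no overlap and a difference of -1.24 ± 0.18 SE (edgeR adjusted p 0.0104). Sema3c differed by -1.06 ± 0.15 SE (adjusted p 0.0106), although the ranges of the clones overlapped across times. Ephb2, Ephb1, Ephb6, Efna5 and Plxna2 were the other members lower in clone 31, at -0.81, -0.68, -0.69, -0.93 and -0.35, while Ephb4 (0.61), Plxnb3 (1.05), Sema6c (0.56), Efna2 (0.65) and Plxnc1 (0.38) were higher. Of the members called at 48 h, Plxnb3, Sema6c and Ephb4 were thus higher in clone 31, and Ephb1, Ephb2, Sema3c and Plxna2 lower.

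**Figure D5:**
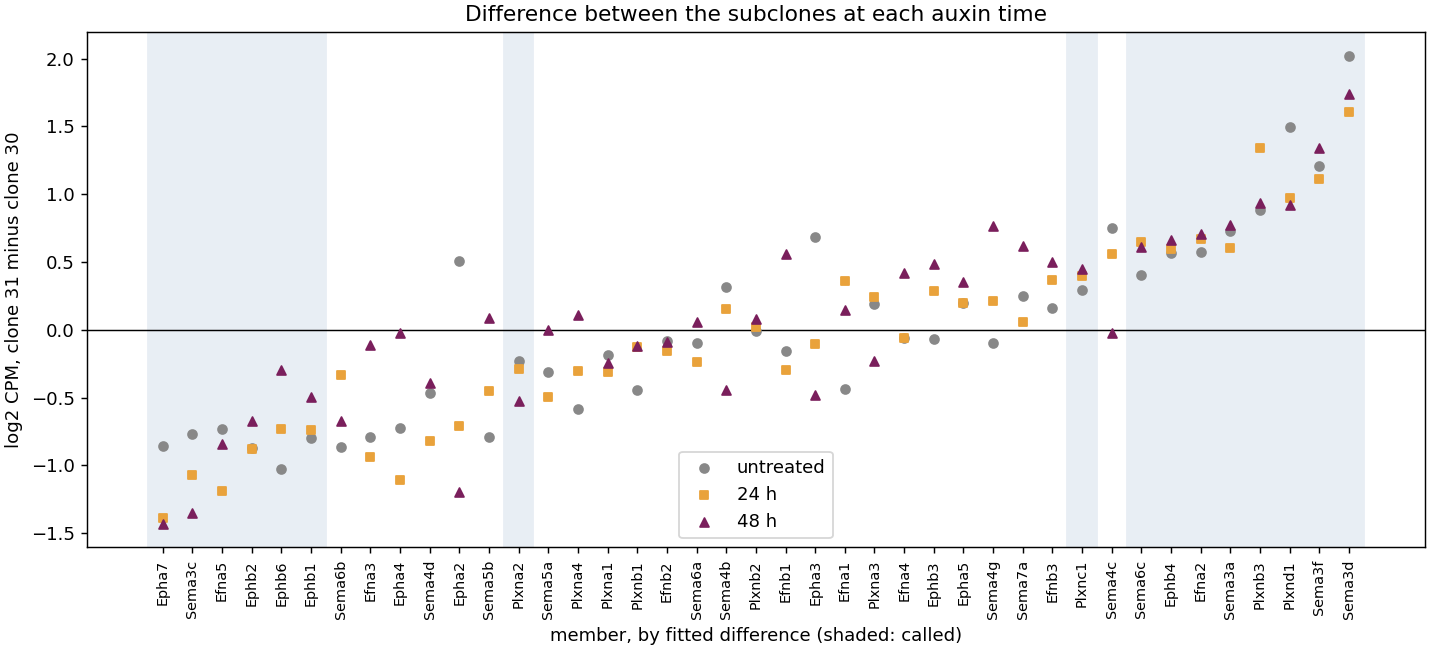
Log2 CPM of clone 31 minus that of clone 30 for each member in untreated cells (circles), at 24 h (squares) and at 48 h (triangles), ordered by the fitted difference, with the 16 called members shaded. Sema3d, Sema3f, Plxnd1 and Plxnb3 lie above 0 and Epha7, Sema3c and Efna5 below 0 at all 3 times.

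Genes that work with these ligands and receptors were taken from lists of coreceptors, other guidance families and signalling partners. Of 77 tested, 8 rose and 9 fell at 48 h in the fit with the block (8.35% and 9.08% of all genes), with a median change of -0.04, and 0 were called at 24 h. Between 24 h and 48 h, 11 rose and 15 fell (12.3% and 13.9% of all genes). Among the plexin partners, Limk2, a kinase that inactivates cofilin, rose by 1.16 ± 0.12 SE from 32.9 and 27.4 CPM to 80.9 and 55.1 CPM, and the collapsin response mediators Dpysl4 and Dpysl5 rose by 1.08 and 0.84. The actin-oxidising Mical2 fell by 0.96 and the GTPase gene Rap1b by 0.53, and in all 3 of 30 rose and 4 fell.

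Of the 24 Eph and ephrin partners tested, 1 rose and 5 fell at 48 h against untreated (8.35% and 9.08% of all genes). Ngef, the exchange factor ephexin that acts downstream of EphA receptors, rose by 1.5 ± 0.25 SE, from 2.09 and 1.0 CPM to 5.53 and 3.05 CPM. The adaptor gene Nck2 fell by 0.61, from 149.6 and 163 CPM to 104 and 102 CPM, and the chimaerins Chn2 and Chn1, Rac-inactivating proteins, fell by 1.07 and 0.50. Of the netrin, slit and repulsive guidance families 3 of 17 rose, including the Robo family gene Robo3 (1.04), and of the coreceptors 1 of 6 did. The class 3 coreceptor Nrp2, chosen for mention after its values were seen, was not called and measured 29.7 and 58.5 CPM untreated, 20.98 and 52.4 CPM at 24 h, and 36.2 and 239 CPM at 48 h, so that the last library of clone 31 stood far above the other 5.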

How the data were processed

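The data are RNA-seq counts from 6 NPC libraries (TruSeq RNA kit v2, paired reads of 100 bases, RNA of RIN above 9, per the labels' protocols). Per the file headers, the authors counted reads per gene with featureCounts 1.6.1 (-p, -s 2) on exons of Ensembl 92, and the deposited values are raw counts per gene on mm10 (GRCm38). The submitters' processing notes name R 3.4.2, featureCounts and DESeq2, with no roles. The kit's name does not mark strand, but Tsix, antisense to Xist, had at most 8 counts where Xist had 17564 or more, so the counts separate strands. Symbols matched 53620 of the 53801 genes.

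From the counts, TMM-scaled CPM and FPKM (CPM per kilobase of the deposited exon length) were computed, with log2 CPM per clone at a prior count of 2. edgeR 4.0.16 quasi-likelihood tests (R 4.3.3, filterByExpr, 16007 genes, Benjamini-Hochberg threshold 0.05) were fitted on all 6 libraries. Treatment group alone was the main design, and the clone as a replicate block was the alternative. The fits were also run on simulated counts with the same spread for every gene and the same clone difference at each time. That run cannot show how the fits behave where the clones change unequally. The clone names pair the libraries by origin, and deviations from the group means correlated at 0.80, 0.58 and 0.71 over 16007 genes. The block lowered the biological coefficient of variation from 0.271 to 0.121, leaving 2 residual degrees of freedom in place of 3. For clone 31 against clone 30, the model held both treatment and clone, over 15492 genes. Alternatives were DESeq2 1.42.0, other scalings, no filter on low counts, and leaving out each library.

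Members named with values were those called at 24 h or 48 h in edgeR, the 2 highest by FPKM per family, those on the X chromosome, and the 5 with the largest clone difference. Efnb3, Epha2, Sema4b, Sema5a, Plxna4 and Plxnc1 fall outside this rule and were chosen after their values were seen. Further members given with a level, a range or a change alone, among them Efnb2, Sema4d, Ephb6 and Sema3a, also fall outside it. The members, the partner and marker lists (neural progenitor, neuron, astrocyte, oligodendrocyte lineage, pluripotent, mesenchymal, endoderm, endothelial, microglia) and this rule were chosen with earlier results of these data known. Of the 83 partner genes listed, 82 matched. Exons of Plxnc1 overlap those of Gm48718 on the same strand, which has 0 CPM. Promoter sequences are from RefSeq, and printed stretches end before the first base of the gene in either annotation.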

Additional observations from a re-analysis of the deposited data

How the results depend on the processing

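With the replicate block, which pairs the libraries by clone, 10 members were called at 48 h against untreated and 16 against 24 h, in place of 0 and 0. At 48 h against untreated, with the block, the count was 10 with DESeq2 size factors (17.6% of all genes) and 12 with upper-quartile scaling (17.2%). It was 14 without a filter (12.1%) and 14 with DESeq2 (21%), each with the block. Without the block it was 1 with no filter (0.805%) and 3 with DESeq2 (10.4%). Leaving out each library in turn gave 0 to 27. Against 24 h with the block, counts in the same order were 16 (26.3% of all genes), 20 (26.7%), 18 (16.4%) and 19 (26.7%). With the block on the 4 libraries compared, the count was 18 (26.5%). Without the block it was 4 with no filter (3.11%) and 6 with DESeq2 (15.8%). Leaving out a library gave 0 to 25 against 24 h. At 24 h against untreated, the block on the 4 libraries compared called 1 member (0.888% of all genes). With the block, leaving out the 48 h library of clone 30 or of clone 31 also raised the count of members and the share of all genes called. Between the clones, the model without treatment group called 3 members, and leaving out a library gave 6 to 26. Changes of direction were screened for called members and, at 48 h against untreated, for the members named by the rule above. At 24 h they were screened for members with an unadjusted p under 0.05 in edgeR with the block. Other members were not screened and may turn as well. Among those screened, leaving out a library turned the direction of these members that were not called: Plxnd1 (-0.24 to 1.27) and Sema3f (-0.26 to 1.14) at 24 h, and Epha7 (-1.06 to 0.37), Plxnd1 (-1.12 to 0.39), Sema3d (-1.94 to 0.57), Sema3f (-1.14 to 0.44) and Efnb1 (-0.18 to 0.64) at 48 h. In each case but Efnb1 it happened in fits without the block, which then compare unequal numbers of libraries of clones 30 and 31. For the other moves the cause was not tested. The 2 libraries per group and the 0.0711 to 0.1204 CPM that 3 counts amount to limit what can be said of the low members, such as Sema7a and Efna1.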

Other observations

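Several genes that the limits of level and span left out also had counts worth listing. Sema6d, a transmembrane semaphorin left out by its span, measured 209 and 221 CPM untreated, 241 and 223 CPM at 24 h, and 218 and 193 CPM at 48 h. Sema3e, the ligand of Plxnd1 just under the level limit, measured 1.81, 1.75 and 0.776 CPM in clone 30 (untreated, 24 h, 48 h) and 0.650, 0.308 and 0.490 CPM in clone 31, the opposite order of clones to Plxnd1. Epha10, a kinase-inactive receptor chosen for mention after its values were seen, had 6 and 1 counts in the untreated libraries of clones 30 and 31, 7 and 0 at 24 h, and 29 and 9 at 48 h.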
